A study of Mus musculus with 8 samples.

Results

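Genes with which hair cells detect sound, contract, release transmitter and receive efferent input were read in the cochlea of normal CBA/CaJ mice. The 8 genes, Tmc1, Tmc2, Tmie, Lhfpl5, Slc26a5, Otof, Chrna9 and Gfi1, were chosen by symbol, of 18193 genes that the array annotation named by probe sets of their own. They had 14 probe sets, all of which were read. Affymetrix Mouse 430 2.0 arrays carried RNA from the soft parts of the cochlea (organ of Corti, modiolus and spiral ligament) of 8 mice, 1 array for each mouse with its ears pooled. The mice were killed with 300 mg/kg urethane and perfused through the heart with saline, their RNA was amplified before labelling, and no age or sex was used. All mice formed a single group, so there was no treated, mutant or control group to compare, and the values describe detection and variation between mice. Hair cells are a small part of this mixed tissue, and in bulk RNA fewer cells of a type and less RNA per cell cannot be told apart.

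Inner hair cells pass sound to the auditory nerve, and outer hair cells amplify the vibration. Deflection of the hair bundle pulls on tip links and opens channels formed by TMC1 and TMC2, which work together with TMIE and LHFPL5. Prestin, encoded by Slc26a5, is the motor of outer hair cells, otoferlin triggers calcium-dependent release at the ribbon synapse, the alpha 9 nicotinic receptor subunit receives efferent input, and GFI1 is a transcription factor that hair cells need to survive and that also acts in blood cell precursors.

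The arrays correlated with each other at 0.96 to 0.99 (Pearson's r of log2 signals), and 0 pairs were identical. Mouse 1 stood apart: its mean correlation with the other arrays was 0.967, against 0.980 to 0.985 for the other mice, and it was the highest mouse for 34.2% and the lowest for 25.1% of genes above background. Markers of the dissected tissue were present, with 8 of 8 genes of the lateral wall, 9 of 9 of supporting cells and 9 of 10 of neurons above background on all arrays. For hair cells the markers were mixed. Myo7a and Myo6, myosins of hair cells, were above background on all arrays, whereas the hair cell transcription factors Pou4f3 and Atoh1 were above it on none, with mean signals of 12.1 and 8.50. Of 7 markers of the central nervous system, 3 were above background on all arrays (42.9%, beside 59.9% of all genes), Cbln1 (mean 2433), Pcp2 (1035) and Gfap (435.2). Olig1 was above it on 1 array, and Olig2 (mean 19.3) and Cbln3 (30.7) on none. Mog, of myelin in the brain, was 314.5 in mouse 1 and 355.8 in mouse 6 but between 2.5 and 28.9 in the other mice. Markers of erythroid cells, neutrophils and B lymphocytes had the widest spread of summed signal between mice among the marker lists, and their values are given beside Gfi1.

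Otof, Tmie, Lhfpl5 and Gfi1 were above background on all 8 arrays, Chrna9 on 7, Slc26a5 on 2 and Tmc1 on 1, and Tmc2 was above it on none. A signal counted as above background when it exceeded the 95th percentile, on the same array, of 139 probe sets of 114 genes without a known role in the ear (receptors for odours and pheromones, and genes typical of other organs), which lay between 73.5 and 100.6. The 4 of 8 members above it on all arrays stand beside 59.9% of all 18193 genes. With the 80 probe sets of receptors alone as background, the thresholds fell to 37.6 to 62.1 and 7 of 8 members were above them on all arrays, all but Tmc2, beside 65.2% of all genes. Of the 114 background genes 4 (Prm1, Slc22a6, Cyp11a1 and Vmn2r29) were themselves above the main threshold on all arrays. The calls of Slc26a5, Tmc1 and Chrna9 therefore depended on which genes served as background, and those of Otof, Tmie, Lhfpl5, Gfi1 and Tmc2 did not in these 2 settings.

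**Figure D1:**
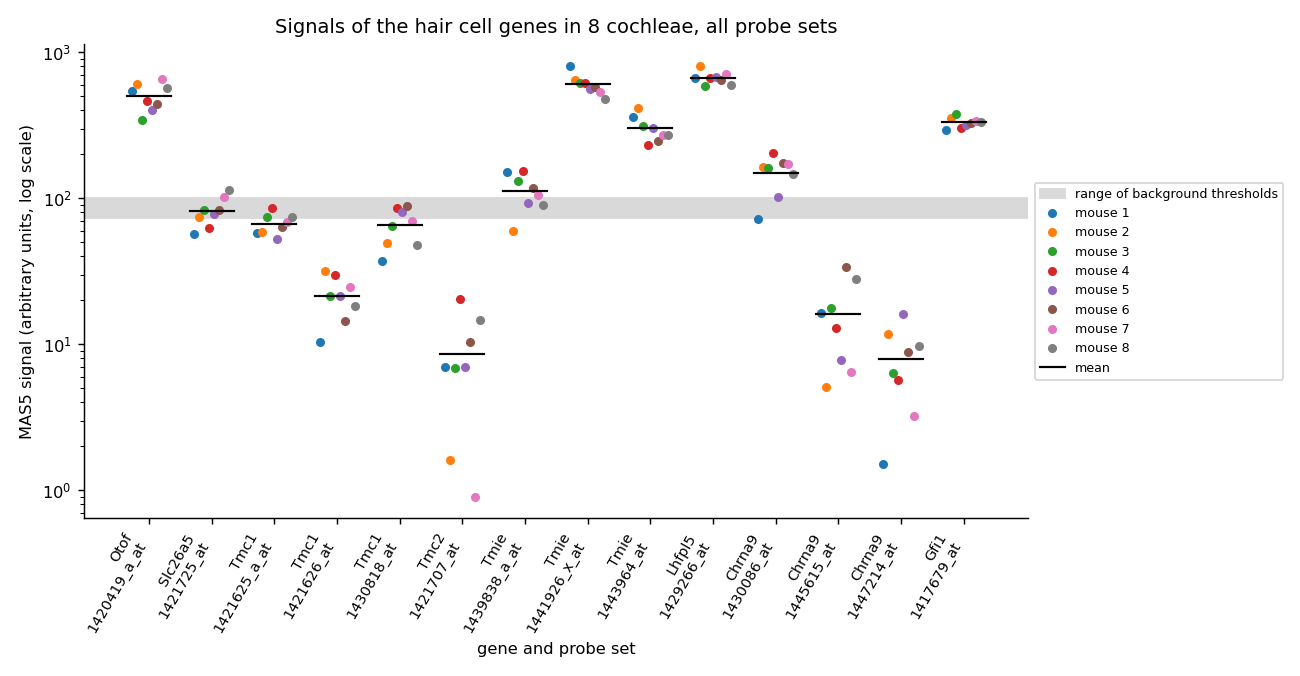
Signal (log axis, arbitrary units) of the 14 probe sets in each of 8 mice (points), with the mean (bar) and the range of background thresholds over the arrays (grey band, 73.5 to 100.6). The brightest probe sets of Otof, Tmie, Lhfpl5 and Gfi1 lie above the band in every mouse, those of Slc26a5 and Tmc1 in or near it, and Tmc2 below it in every mouse.

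Of the channel genes, Tmc1 was read by 3 probe sets. Its brightest, 1421625_a_at, had signals of 52.6 at the lowest (mouse 5), 66.1 at the median and 85.5 at the highest (mouse 4), with a mean of 66.9 ± 10.9 (SD, n = 8). Only mouse 4 was above its array's threshold, and by 1.04 times. The probe set 1430818_at ranged from 36.9 in mouse 1 to 89.1 in mouse 6 (median 67.0) and was also above background on 1 array, that of mouse 4. The third, 1421626_at, lay between 10.4 and 31.8 and was above it on 0 arrays. The 3 probe sets did not rank the mice alike: r was 0.24 between the 2 brighter ones and 0.33 and 0.37 between each of them and 1421626_at, as a description at signals near background.

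Tmc2, the channel gene that in mouse cochlear hair cells is used early in development, had 1 probe set, 1421707_at, with signals of 0.9 in mouse 7, 7 at the median and 20.3 in mouse 4. Even the highest was 0.246 of that array's threshold. At this sensitivity Tmc2 RNA was not distinguishable from background in any mouse, which is a limit of the array and not a measured absence.

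Lhfpl5, which couples the tip link to the channel, was clear of background and steady. Its probe set 1429266_at gave 586.9 in mouse 3, 666.2 at the median and 811.7 in mouse 2, a mean of 671.1 ± 69.7 (SD, n = 8). The highest mouse was 1.38 times the lowest, and every mouse was at 6.42 times its array's threshold or more. On the log2 scale the SD was 0.15, and 29.7% of the 500 probe sets nearest in mean signal varied less.

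Tmie, the small membrane protein of the channel complex, was read by 3 probe sets that gave different orders of the mice. The brightest, 1441926_x_at, whose suffix marks probes that may also match other transcripts, ranged from 481.5 in mouse 8 through a median of 599.9 to 799.8 in mouse 1, with a mean of 605.9 ± 95.03 (SD, n = 8). The probe set 1443964_at ranged from 231.2 in mouse 4 to 416.4 in mouse 2, with a mean of 301.8 ± 61.9, and both were above background on all arrays. The third, 1439838_a_at, ranged from 59.2 in mouse 2 to 153.4 in mouse 4, and was above it on 7 arrays, all but that of mouse 2. So mouse 2 was the highest mouse for one probe set and the lowest for another of the same gene.

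Across the 8 mice the 2 brighter Tmie probe sets correlated with r = 0.55 (exact permutation p = 0.156, two-sided over all 40320 pairings of the mice) and Spearman's rho = 0.45 (exact permutation p = 0.267). The Benjamini-Hochberg adjusted exact permutation p of r was 0.359 over 4426 genes with at least 2 probe sets above background, 390 of which (8.81%) passed 0.05. Without the 2 mice farthest from the median of 1441926_x_at, r was 0.46. The third probe set had r = 0.36 with 1441926_x_at and r = -0.48 with 1443964_at. Differences in Tmie between mice are therefore given for a named probe set below.

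**Figure D2:**
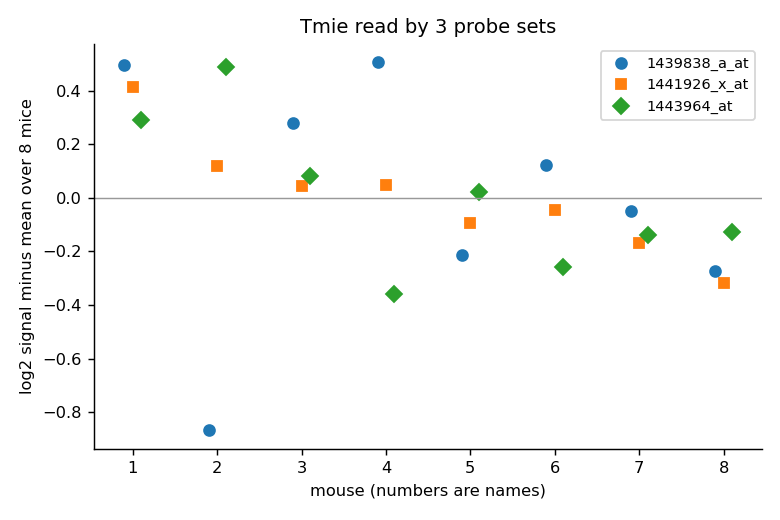
Log2 signal of the 3 Tmie probe sets in each mouse, minus that probe set's mean over the 8 mice; points are set side by side for legibility and mouse numbers are names. Mouse 2 is highest for 1443964_at and lowest for 1439838_a_at.

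Of the other genes of the transduction apparatus, 11 were listed and 7 measured. Of these, 4 were above background on all arrays (57.1%, beside 59.9% of all genes) and 3 on none. Above it were Myo1c, a motor proposed for adaptation, Ush1c, which encodes the scaffold harmonin at the upper end of the tip link, Pcdh15, the lower part of the tip link, and Myo7a. Their mean signals were 2639 ± 487, 549.3 ± 72.1, 275.2 ± 49.7 and 206.5 ± 41.8 (SD, n = 8 each). Cdh23, the upper part of the tip link, Whrn, which encodes the bundle scaffold whirlin, and Cib3, related to a TMC-binding subunit, had means of 16.7, 43.6 and 11.0 and were above background on 0 arrays. Cib2, Tomt, Ush1g and Pdzd7 lacked a probe set naming them alone and were not analysed here.

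Slc26a5, the prestin gene, lay at the edge of background. Its probe set 1421725_at gave 56.6 in mouse 1, 80.2 at the median and 114.7 in mouse 8, with a mean of 81.7 ± 19.0 (SD, n = 8). It was above threshold in mouse 7 (101.3) and mouse 8, whose thresholds were the lowest of the 8 arrays, at 73.5 and 74.7. The other 3 genes of outer hair cells that were measured were above background on all arrays, beside 59.9% of all genes. They were Ikzf2, a transcription factor that keeps outer hair cell identity, Lbh, a transcriptional cofactor, and Strc. Strc encodes stereocilin at the bundle's attachment to the tectorial membrane. Ikzf2 averaged 882.1 ± 161, Lbh 456.3 ± 41.9 and Strc 153.9 ± 35.8 (SD, n = 8 each).

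Otof was well above background and among the more variable genes of its signal level. Its probe set 1420419_a_at gave 345.1 in mouse 3, 503.1 at the median and 658.0 in mouse 7, with a mean of 503.2 ± 108 (SD, n = 8). Mice 7, 2, 8 and 1 lay between 542.0 and 658.0, and mice 4, 6, 5 and 3 between 345.1 and 464.3. Its log2 SD was 0.32, where the median of the 500 probe sets nearest in mean signal was 0.19 and 86.4% of them varied less. Without mouse 1 the SD was 0.34.

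Of the other ribbon synapse genes 5 of 8 measured were above background on all arrays (62.5%, beside 59.9% of all genes), 2 on some and Bsn on none. Cacna1d, the calcium channel that gates release, averaged 2585 ± 211, Cabp2, which tunes that channel, 1357 ± 211, and Ctbp2, whose ribbon-specific product is the main ribbon protein, 972.8 ± 181. Pclo, a scaffold of the active zone, averaged 237.2 ± 40.3 and Cacnb2, a subunit of calcium channels, 142.5 ± 26.1 (SD, n = 8 each). Bsn, which encodes the scaffold bassoon that anchors the ribbon, averaged 53.1. Many of these genes are also used by neurons, whose 10 markers summed to between 18430 in mouse 6 and 38046 in mouse 4, a spread of 2.06 times. Mouse 6 was also the lowest for Pclo (151.1), but not for Otof (441.3), and the part of neurons in these values was not tested. Otof correlated with the neurofilament gene Nefl at r = 0.22 (exact permutation p = 0.641, two-sided) and rho = 0.14 (exact permutation p = 0.752). The adjusted p of r was 0.887 by the exact permutation test over 43546 tests. Without the 2 mice farthest from the median of Otof, r was 0.32. Of the 9 neuron markers above background on all arrays, 8 had r over 0 with Otof. Their r lay between -0.02 and 0.48, with a median of 0.25 beside 0.07 over all genes.

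Chrna9 was above background on all arrays except that of mouse 1. Its probe set 1430086_at gave 72.5 in mouse 1, 162.9 at the median and 203.7 in mouse 4, a mean of 149.8 ± 42.6 (SD, n = 8). Mouse 5, with 101.6, was the next lowest, and the other 6 mice lay between 147.3 and 203.7. The log2 SD of 0.49 was larger than that of 91.8% of the 500 probe sets nearest in mean signal, and mouse 1 carried much of it, since without that mouse it was 0.31. The other 2 probe sets of the gene, 1445615_at and 1447214_at, had means of 16.0 and 7.89 and were above background on 0 arrays. Among the other efferent synapse genes Kcnn2, the SK2 potassium channel that opens on calcium entry through the receptor, averaged 1243 ± 164 and Kcnma1, the BK channel, 990.6 ± 85.4 (SD, n = 8 each), both above background on all arrays. Rapsn, which clusters nicotinic receptors, was above it on some arrays, and Chrna10, the partner subunit, was not analysed here.

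Gfi1 varied little between mice. Its probe set 1417679_at gave 294.5 in mouse 1, 331.8 at the median and 378.2 in mouse 3, with a mean of 331.4 ± 27.4 (SD, n = 8). The highest mouse was 1.28 times the lowest, and 9.42% of the 500 probe sets nearest in mean signal had a lower log2 SD than its 0.12. On the deposited scaling this was the smallest log2 SD of the 8 genes, while Lhfpl5 had the smaller one under both other scalings tried. Of the other hair cell transcription factors 2 of 8 were above background on all arrays (25.0%, beside 59.9% of all genes). They were Rfx3 with a mean of 784.9 ± 217 and Rfx1 with 285.8 ± 28.3 (SD, n = 8 each), both also used in other cells. Pou4f3, Atoh1, Barhl1, Lhx3, Insm1 and Nhlh1, several of which act mainly during development, were above it on none, with means between 8.50 and 44.7.

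Because Gfi1 also acts in the precursors of neutrophils, markers of those cells are given beside it. Of 10 measured, 2 (S100a8 and S100a9) were above background on all arrays and 8 on some, and their summed signal ranged from 1816 in mouse 7 to 28611 in mouse 3, or 15.8 times. Mpo, the myeloperoxidase of early precursors, ranged from 31.1 in mouse 7 to 1013.6 in mouse 3, and Elane, the elastase of the same stage, from 26.2 in mouse 7 to 174.5 in mouse 3. Gfi1 was highest in mouse 3 too, but in mouse 7, where these markers were lowest, it was 340.7 and above its median. With S100a8 its r was 0.28 (exact permutation p = 0.502, two-sided) and rho 0.36 (exact permutation p = 0.389), and r was -0.20 without the 2 mice farthest from the median of Gfi1; the adjusted p of r was 0.833 (exact permutation test, 43546 tests). Single mice decided this r, which was 0.76 without mouse 7 and 0.05 without mouse 3. B lymphocyte markers, 6 measured and 0 above background on all arrays, summed to between 148.5 in mouse 7 and 778.2 in mouse 6. Erythroid markers, 3 measured and 0 above background on all arrays, summed to between 78.1 in mouse 7 and 2652 in mouse 3. The part of blood cells in the Gfi1 signal was not tested.

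**Figure D3:**
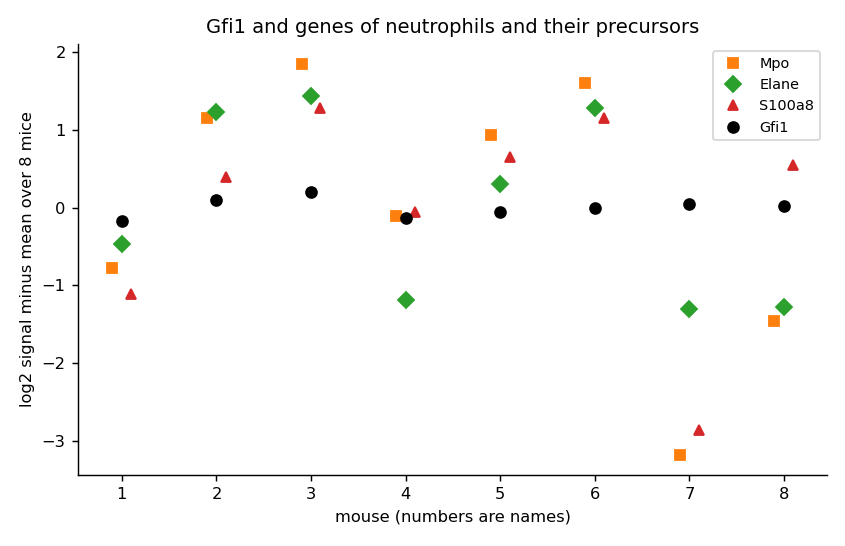
Log2 signal of Gfi1 and of 3 genes of neutrophils and their precursors (Mpo, Elane, S100a8) in each mouse, minus each gene's mean over the 8 mice; mouse numbers are names. The myeloid genes spread far more between mice than Gfi1, and in mouse 7, where Mpo was 31.1, Gfi1 was 340.7.

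Hair bundle genes that complete the picture were above background on all arrays in 7 of 13 measured cases (53.8%), on some in 4 and on none in 2. Among them were Myo6 with 4338 ± 340, Eps8l2 with 1139 ± 124, Clic5 with 1028 ± 90.1, Eps8 with 952.7 ± 80.1, Triobp with 254.4 ± 34.2 and Gpsm2 with 235.5 ± 23.1 (SD, n = 8 each), all with products in the bundle or its rootlets that are also made in other cells. Myo3a, a myosin of the stereocilia tips, and Clrn1, an Usher syndrome gene, had means of 17.4 and 39.9 and were above background on 0 arrays. Over the hair cell lists together, 23 of 42 measured genes (54.8%) were above background on all arrays, close to the 59.9% of all genes.

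Relatives of the members were read as well, since some are used outside hair cells. Of 13 measured, 7 were above background on all arrays (53.8%, beside 59.9% of all genes). Lhfpl2 averaged 1993 ± 242, Tmc4 1590 ± 120, Tmc6 371.4 ± 44.9, Dysf 263.9 ± 45.4, Myof 230.3 ± 53.4 and Lhfpl4 219.8 ± 49.9 (SD, n = 8 each), with Tmc7 the seventh. Fer1l4 and Fer1l6, of the otoferlin family, had means of 15.7 and 21.1 and were above it on 0 arrays. Levels are not ranked between genes here, because each probe set has its own brightness for the same amount of RNA.

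**Figure D4:**
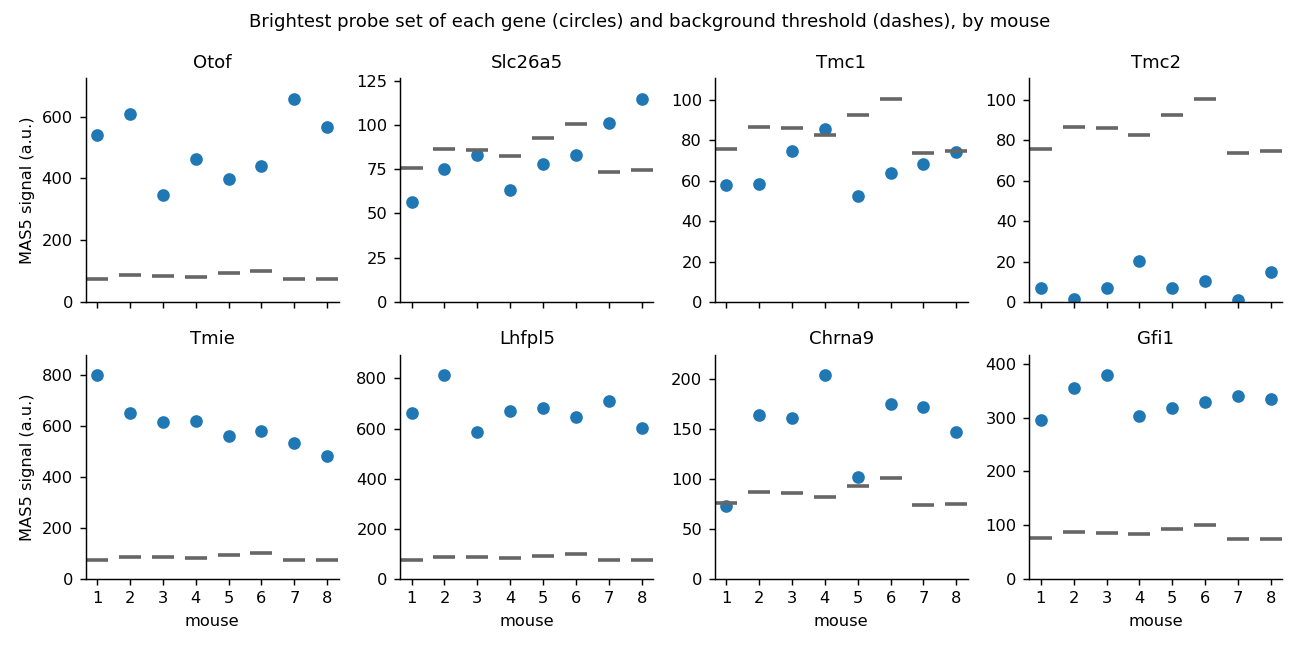
Signal of the brightest probe set of each gene (circles, linear axis in arbitrary units) in each of the 8 mice, with that array's background threshold (dashes); mouse numbers are names. Chrna9 lies below its threshold in mouse 1 only, and Slc26a5 above its threshold in mice 7 and 8 only.

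Upstream sequences show how these genes differ at their starts. RefSeq promoters (build GRCm38.p6, the 250 bases before the start) were found for 6 of the 8 genes. The letters CAGCTG, a form of the E-box to which basic helix-loop-helix factors bind and which reads the same on both strands, were present in Tmie, Lhfpl5 and Chrna9, and in 13.0% of 32851 mouse promoters of that length. They are shown in capitals, followed by Slc26a5, in which none of the searched letters occurred. Tmie is at chr9:110880074-110880323 on the minus strand, Lhfpl5 at chr17:28575469-28575718 on the plus strand, Chrna9 at chr5:65966874-65967123 on the plus strand and Slc26a5 at chr5:21865605-21865854 on the minus strand, each printed 5′ to 3′ in the direction of the gene.
Tmie: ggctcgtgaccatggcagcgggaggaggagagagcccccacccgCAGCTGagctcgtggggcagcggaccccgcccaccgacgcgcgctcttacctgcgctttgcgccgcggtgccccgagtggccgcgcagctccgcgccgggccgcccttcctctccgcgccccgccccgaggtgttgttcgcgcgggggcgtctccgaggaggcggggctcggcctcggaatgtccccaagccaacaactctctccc
Lhfpl5: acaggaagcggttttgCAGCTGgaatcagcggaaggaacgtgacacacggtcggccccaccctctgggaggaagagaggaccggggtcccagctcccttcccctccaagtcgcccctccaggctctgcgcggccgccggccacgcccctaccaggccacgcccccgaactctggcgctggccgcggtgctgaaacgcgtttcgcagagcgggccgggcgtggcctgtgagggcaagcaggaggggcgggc
Chrna9: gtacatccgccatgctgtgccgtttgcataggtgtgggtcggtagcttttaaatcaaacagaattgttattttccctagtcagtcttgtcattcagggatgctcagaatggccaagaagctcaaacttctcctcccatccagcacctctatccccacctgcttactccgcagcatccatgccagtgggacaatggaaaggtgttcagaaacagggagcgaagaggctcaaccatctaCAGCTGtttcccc
Slc26a5: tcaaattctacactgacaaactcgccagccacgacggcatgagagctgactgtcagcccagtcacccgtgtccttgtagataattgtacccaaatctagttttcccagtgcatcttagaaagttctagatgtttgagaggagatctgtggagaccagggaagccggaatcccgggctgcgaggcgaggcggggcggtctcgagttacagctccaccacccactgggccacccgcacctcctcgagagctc
The match began 206 bases before the start in Tmie, 234 in Lhfpl5 and 13 in Chrna9, and it overlapped no other searched motif. The other letters searched on both strands were TATAAA (12.4% of promoters), GTTGCC, a core of the X-box (10.4%), and CCAAT (33.8%). CCAAT was found in Tmc1, 211 bases before its start, and none of the 4 in Gfi1. GC content differed widely, at 74.8% in Tmie, 70.8% in Lhfpl5, 56.0% in Slc26a5, 50.0% in Chrna9 and 41.2% in Tmc1, where the median of all promoters was 52.4%. A match describes these letters in this window and not a bound site.

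Whether the members varied together with other genes was asked over the 10889 genes above background on all arrays. For Otof, Tmie, Lhfpl5 and Gfi1, 0 of 43546 correlations (0.0%) passed an adjusted p of 0.05 by the exact permutation test of Pearson's r, and 0 with Spearman's rho. The smallest adjusted p of r was 0.295, while 4105 had an unadjusted exact permutation p under 0.05 (9.43%), and 2429 did so with rho. By member the unadjusted count was 2507 of 10888 genes for the Tmie probe set 1441926_x_at (23.0%), 581 for Gfi1 (5.34%), 546 for Lhfpl5 (5.01%) and 471 for Otof (4.33%). By that probe set Tmie was highest in mouse 1, the mouse that stood apart over all genes, and the part of mouse 1 in the Tmie count was not tested. The total count also depended on the probe sets read. With no _x_at probe set where a gene had another, 2520 of 43322 tests had an unadjusted exact permutation p under 0.05. Tmie was then read by another probe set, and counts by member were not made in that setting. The Tmie count therefore holds for 1441926_x_at only. The smallest possible exact permutation p, 2.48e-05, is too large for a single pair to pass over 43546 tests or more. Only many pairs near that p together could pass, so the count of 0 says little about any pair. With 8 mice the correlations below are descriptions of these animals.

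No pair among Otof, Lhfpl5, Tmie and Gfi1 passed the test. Otof and Lhfpl5 had r = 0.57 (exact permutation p = 0.138, two-sided) and rho = 0.57 (exact permutation p = 0.151), with an adjusted p of r of 0.630 (exact permutation test, 43546 tests) and r = 0.30 without the 2 mice farthest from the median of Otof. Otof with the Tmie probe set 1441926_x_at had r = -0.07, Otof with Gfi1 -0.15, Lhfpl5 with Tmie 0.24, Lhfpl5 with Gfi1 -0.05 and Tmie with Gfi1 -0.34, and their exact permutation p-values lay between 0.410 and 0.903. For these 5 pairs rho lay between -0.26 and 0.17 (exact permutation p between 0.536 and 0.935), the lowest adjusted p of r was 0.794, and without the 2 mice farthest from the median of the first gene r lay between -0.10 and 0.40.

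Otof and 3 hair cell genes had high values in largely the same mice, and these pairs were picked after their values were seen. An exception was Ush1c in mouse 4, which at 593.0 was above mice 8 (555.5) and 1 (554.2). Ush1c was highest in mouse 7 with 650.0 and mouse 2 with 620.3, as was Otof, and their r was 0.85 (exact permutation p = 0.00898, two-sided), rho 0.90 (exact permutation p = 0.00456) and r 0.81 without the 2 mice farthest from the median of Otof. Strc was highest in the same mice with 199.0 and 186.9. Its r with Otof was 0.79 (exact permutation p = 0.0239) and rho 0.86 (exact permutation p = 0.0107). With the 2 mice farthest from the median of Otof left out, mice 3 and 7, r was 0.99. Cabp2 was highest in mouse 1 with 1740 and lowest in mouse 3 with 1146. Its r with Otof was 0.74 (exact permutation p = 0.0397), rho 0.76 (exact permutation p = 0.0368) and r 0.82 without mice 3 and 7. None passed adjustment over the 43546 tests, at exact permutation adjusted p-values of r of 0.461, 0.484 and 0.515. Other genes of the same lists did not follow Otof: r was -0.13 with Pcdh15, -0.18 with Ctbp2, -0.21 with Cacnb2, -0.25 with Myo6 and -0.40 with Eps8. The median r of Otof was 0.09 over 4 transduction genes, 0.16 over 3 outer hair cell genes, 0.10 over 5 ribbon synapse genes and -0.11 over 7 hair bundle genes, beside 0.07 over all 10888 genes.

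S100a8, the neutrophil gene, ran the other way, with 528.0 in mouse 7 and 9220 in mouse 3, against 658.0 and 345.1 for Otof in those mice. Its r with Otof was -0.70 (exact permutation p = 0.0470, two-sided) and rho -0.79 (exact permutation p = 0.0279), with an adjusted p of r of 0.525 by the exact permutation test. Without mice 3 and 7, the 2 farthest from the median of Otof, r was -0.35. Lateral wall markers also ran against Otof, with 0 of 8 above 0. Their r lay between -0.64 and -0.06, with a median of -0.44 beside 0.07 over all genes. Without mice 3 and 7 these markers no longer ran one way, and r lay between -0.69 (Kcnj10) and 0.38 (Otos). The part of blood cells or of lateral wall tissue in the spread of Otof was not tested. The 9 supporting cell markers, whose summed signal ranged from 37783 in mouse 7 to 45877 in mouse 3, did not run one way with Otof: r lay between -0.61 and 0.75 (Prox1), with a median of -0.41 and 3 of 9 above 0. Otop1, a proton channel gene of the vestibular organs, was 294.1 in mouse 3 and 590.6 in mouse 5. Its r with Otof was 0.46 (exact permutation p = 0.254) and rho 0.29 (exact permutation p = 0.501). The exact permutation adjusted p of r was 0.715, and r was -0.54 without mice 3 and 7. Oc90, another vestibular gene, did not exceed 6.30.

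**Figure D5:**
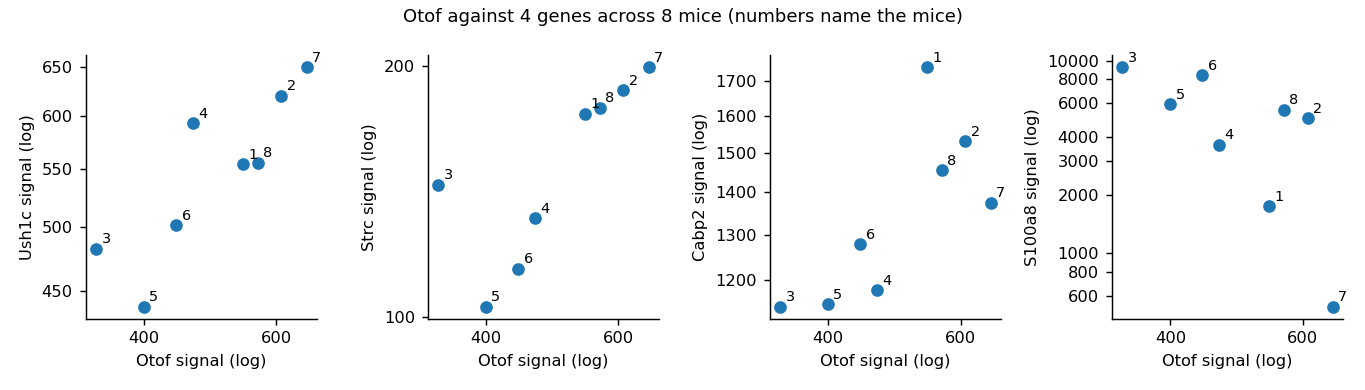
Signals of Ush1c, Strc, Cabp2 and S100a8 against Otof, both on log axes in arbitrary units, 1 point for each of 8 mice with its number as a name. The Otof axis is the same in all panels, so mice 7, 2, 8 and 1 lie to the right in each by construction. In the order named, r is 0.85, 0.79, 0.74 and -0.70.

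Slc26a5, Tmc1 and Chrna9 were above background on too few arrays to enter that test, and their correlations were computed in addition, after the data were seen, over 76213 tests in all, of which 0 passed an adjusted exact permutation p of 0.05. Slc26a5 and Ikzf2 were both lowest in mouse 1 and highest in mice 7 and 8, with r = 0.89 (exact permutation p = 0.00196, two-sided), rho = 0.90 (exact permutation p = 0.00456), an adjusted p of r of 0.331 and r = 0.91 without the 2 mice farthest from the median of Slc26a5. With the Tmie probe set 1441926_x_at, Slc26a5 had r = -0.90 (exact permutation p = 0.00253), rho = -0.90 (exact permutation p = 0.00456), an adjusted p of r of 0.334 and r = -0.69 without those mice. With 1443964_at read for Tmie, r was -0.29, and with the mean of all probe sets of a gene it was -0.81. The strength of the opposite course of these genes therefore depended on the probe set. Both pairs were picked after their values were seen, and Slc26a5 was near background in them.

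The 3 genes most like each member in Pearson's r of log2 signal over the 8 mice are given as a description. For Otof they were Fkbp8 (r = 0.96), an immunophilin gene, Tpbgl (0.96) and Cd164l2 (0.96), whose signal ranged from 275.2 in mouse 3 to 680.0 in mouse 7. For Lhfpl5 they were Hsd17b6 (0.96), a steroid and retinoid dehydrogenase gene, Zfp566 (0.95) and Samd10 (0.94). Gfi1 ran most closely with Socs2 (0.97), a suppressor of cytokine signalling, Gk5 (0.97) and Ildr1 (0.95), a deafness gene of tight junctions where 3 cells meet. For the Tmie probe set 1441926_x_at they were Glis2 (0.98), a zinc finger factor, Ccbe1 (0.97), a secreted factor of lymphatic vessel growth, and Slc25a13 (0.97), a mitochondrial carrier. Of the 10888 genes set against each, 0.873% had r over 0.8 with Otof, 0.863% with Lhfpl5, 0.873% with Gfi1 and 7.10% with Tmie.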

How the data were processed

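The authors deposited linear intensities (MAS5 signals) per probe set, made with MAS5 per the submitters' processing notes, with the version not given in the sources used here. Deposited arrays had been scaled: after trimming 2% at either end, the mean intensity came to 500.0 on all 8. The file held 0 further sample columns. Of 45101 probe sets 34945 named 1 gene in the platform annotation, and 932 that named several and 9224 others were not used. The brightest probe set by mean represented a gene, as log2 of the signal with values under 1 set to 1. Correlations were tested two-sided over all 40320 pairings of the mice, where the smallest possible p is 2.48e-05, and adjusted by Benjamini-Hochberg over each whole table at 0.05. Code was tested on simulated data with Python 3.11.15, numpy 2.4.6 and pandas 2.3.3, and figures were drawn with matplotlib 3.10.9. The members and gene lists were chosen with earlier results of these data known. Named from each list were the members above background on all arrays and on none, up to 6 of each by mean signal, from each correlation the 3 most alike genes; further genes were picked with values in view. The number of arrays limits the precision, and the spread between mice includes that of the assay.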

Additional observations from a re-analysis of the deposited data

Results flagged for a closer look

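Of the 14 probe sets of the 8 genes, 0 had a mouse far from the others by Dixon's test. Among 44 probe sets tested, the members' and those of hair cell genes and relatives above background on all arrays, 5 had one (11.4%), where the nominal share of the test is 5%. The share over all probe sets above background was not computed, so the 11.4% is not read as a trait of these genes. In mouse 1 Myo1c was high at 3761, Cacna1d was high at 3078 and Ctbp2 was low at 567.7. Rfx1 was low in mouse 3 at 226.1, and Eps8 was low in mouse 8 at 786.6.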

How the results depend on the processing

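No paired analysis was possible because all 8 mice form one group. The 4 members above background on all arrays became 7 with receptor genes alone as background, beside 65.2% of all genes. They became 3 at the 99th percentile, beside 43.6% of all genes, where Gfi1 was above on 6 arrays and Chrna9 on 0. They became 5 when 4 arrays sufficed, beside 64.7% of all genes. The share of all genes, 59.9% in the main setting, thus fell and rose with these member counts. Leaving out one mouse at a time gave 4 to 5 members, with Chrna9 added without mouse 1. The median log2 SD of the members above background was 0.18, and 0.15 to 0.20 with one mouse left out. Of the genes with several probe sets, 390 passed the test of agreement, and 114 with Spearman's rho. When 1 mouse was left out, 18 to 251 passed, the fewest without mouse 2 (18) and without mouse 1 (21). A set of 7 mice also allows fewer pairings. No correlation of a member passed in any setting run, including quantile normalization, another scaling, an offset of 32 and the mean of all probe sets. A single pair could not have passed in any of them, because the smallest possible exact permutation p is too large for so many tests. Direction was followed under these settings for a few pairs only. They were Otof with Ush1c, Strc, Cabp2, Rimbp2, Lhfpl5 and S100a8, Slc26a5 with Ikzf2 and Tmie, and Gfi1 with S100a8. None of them reversed. Leaving out the 2 mice farthest from the median of the first gene turned the r of some pairs. These were Otof with Otop1 (0.46, then -0.54), Otof with Gfi1 (-0.15, then 0.40), Gfi1 with S100a8 (0.28, then -0.20) and further pairs not named. Lhfpl5 varied less than Gfi1 (log2 SD) with quantile normalization, at 0.12 for Lhfpl5 and 0.13 for Gfi1, with the same median on each array, at 0.11 and 0.14, and without mouse 2, at 0.10 and 0.12. The log2 SD of Tmc1 was 0.37 and 0.47 without mice 1 and 8, where another probe set became its brightest, and Tmc2 had 0.22 with the offset. Signals near background limit what can be said of Slc26a5, Tmc1, Tmc2 and Chrna9.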
